A study of Mus musculus with 16 samples.

Results

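Transforming growth factor beta (TGF-beta) signalling genes were examined in ventricular myocytes of mice under pressure overload. The 10 genes are the ligands Tgfb1, Tgfb2 and Tgfb3, the latent-complex protein Ltbp1, the receptors Tgfbr1, Tgfbr2 and Tgfbr3, the receptor-activated transducers Smad2 and Smad3, and the inhibitor Smad7. They were chosen by gene symbol from the 35682 genes of the deposited count table, all 10 were found, and all 10 passed the filter on low counts. The groups were 8 B3AR-Tg mice, transgenic for the beta-3 adrenoceptor, and 8 wild-type (WT) littermates. All 16 animals had transverse aortic constriction (TAC), a narrowing of the aorta that makes the left ventricle pump against a higher pressure, and were studied 9 weeks later, so no animal without TAC serves as a baseline. The promoter that drives the transgene, the species of its receptor and the age of the mice were not given in the sources used here.

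TGF-beta ligands are secreted in an inactive form, held by their own propeptide and by a latent TGF-beta binding protein such as Ltbp1 in the matrix. Once released, a ligand binds the type II receptor Tgfbr2, which activates the type I receptor Tgfbr1, while the co-receptor Tgfbr3 (betaglycan) presents ligand, Tgfb2 above all. Active receptors phosphorylate Smad2 and Smad3, which enter the nucleus with Smad4 and raise genes of the extracellular matrix. They also raise Smad7, which blocks the receptors and closes a negative feedback loop. In the pressure-loaded heart the pathway is known for its part in fibrosis and hypertrophy.

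Library totals were between 6926821 and 11584656 counts in WT and between 5985335 and 14365864 in B3AR-Tg. Mouse Adrb3 held 0 to 4 counts in WT and 0 to 3 in B3AR-Tg, so it could not be used to check the genotype labels. The 8 markers of cardiac myocytes summed to between 39980 and 51580 CPM (counts scaled to library size with TMM factors) in WT and between 46850 and 55470 in B3AR-Tg. Other cells were present in the preparations: 8 fibroblast markers summed to 67.7 to 138.8 CPM (median 95.9) in WT and 28.3 to 100.3 CPM (median 46.6) in B3AR-Tg, and 8 endothelial markers to 115.9 to 157.1 CPM (median 133.4) and 50.95 to 176.1 CPM (median 88.8). The 8 mural cell markers had medians of 73.5 and 52.9 CPM, and the 8 leukocyte markers 6.32 and 5.44 CPM, with the T-cell marker Cd3e at 0 counts in all animals. In bulk RNA of this kind, fewer cells of a type and less RNA per cell cannot be told apart.

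The promoters of Tgfb2 and Tgfb1 are shown because these 2 ligands had fold changes of opposite sign between the genotypes, neither past the threshold. Each line gives the 100 bases before the RefSeq start of the gene on GRCm38.p6, chr1:186705990-186706089 on the minus strand for Tgfb2 and chr7:25686902-25687001 on the plus strand for Tgfb1. Capitals mark a cAMP response element half-site (TGACG, here on the opposite strand as CGTCA) and a TATA box (TATAAA).
Tgfb2: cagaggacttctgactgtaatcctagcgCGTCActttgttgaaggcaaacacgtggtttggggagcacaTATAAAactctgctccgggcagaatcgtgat
Tgfb1: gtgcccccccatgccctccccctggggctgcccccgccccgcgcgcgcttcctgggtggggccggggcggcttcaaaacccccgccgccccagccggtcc
The half-site of Tgfb2 begins at position -72 and the TATA box at -31, counted back from -1 at the base before the start. Neither motif was found in Tgfb1, whose 100 bases are 82.0% G or C against 49.0% in Tgfb2. Both strands of the 250 bases before the start were searched in all 32851 promoters of the table, of which 17.8% held TGACG, 12.4% TATAAA, 1.55% the full element TGACGTCA (which contains TGACG) and 42.2% the SMAD-binding letters CAGAC. Sequences of 6 of the 10 genes were used, with 8 promoters in all. Tgfb3 and Tgfbr3 had no promoter entry, and Smad2 and Smad7 were left out. No motif is therefore reported for Smad7, the member past the threshold in the comparison below. The first promoter of Ltbp1 held TGACGTCA at -73, CAGAC or its complement was found in promoters of Tgfb2, Tgfbr1, Tgfbr2 and Ltbp1, and the searched bases of Tgfb1 and Smad3 held none of the 4 motifs. These matches describe letters and were not tested as binding sites.

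Genotype was compared for each gene in a fit of all 10945 tested genes (edgeR quasi-likelihood test, Benjamini-Hochberg adjustment over all of them). Of the 10 TGF-beta genes, 1 passed at an adjusted p under 0.05. This was Smad7, which was lower in B3AR-Tg. Over all tested genes 4.91% passed, 2.03% higher and 2.88% lower in B3AR-Tg, so 1 of 10 is near the background. At an unadjusted p under 0.05 stood 5 of the 10 (Tgfb1, Tgfb2, Tgfb3, Tgfbr3 and Smad7), where the share over all genes was 19.3%. The groups of animals overlapped for all 10 genes (0.448% of tested genes had groups that did not overlap). The median log2 fold change was 0.00 over the 10 genes and 0.01 over all tested genes.

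**Figure D1:**
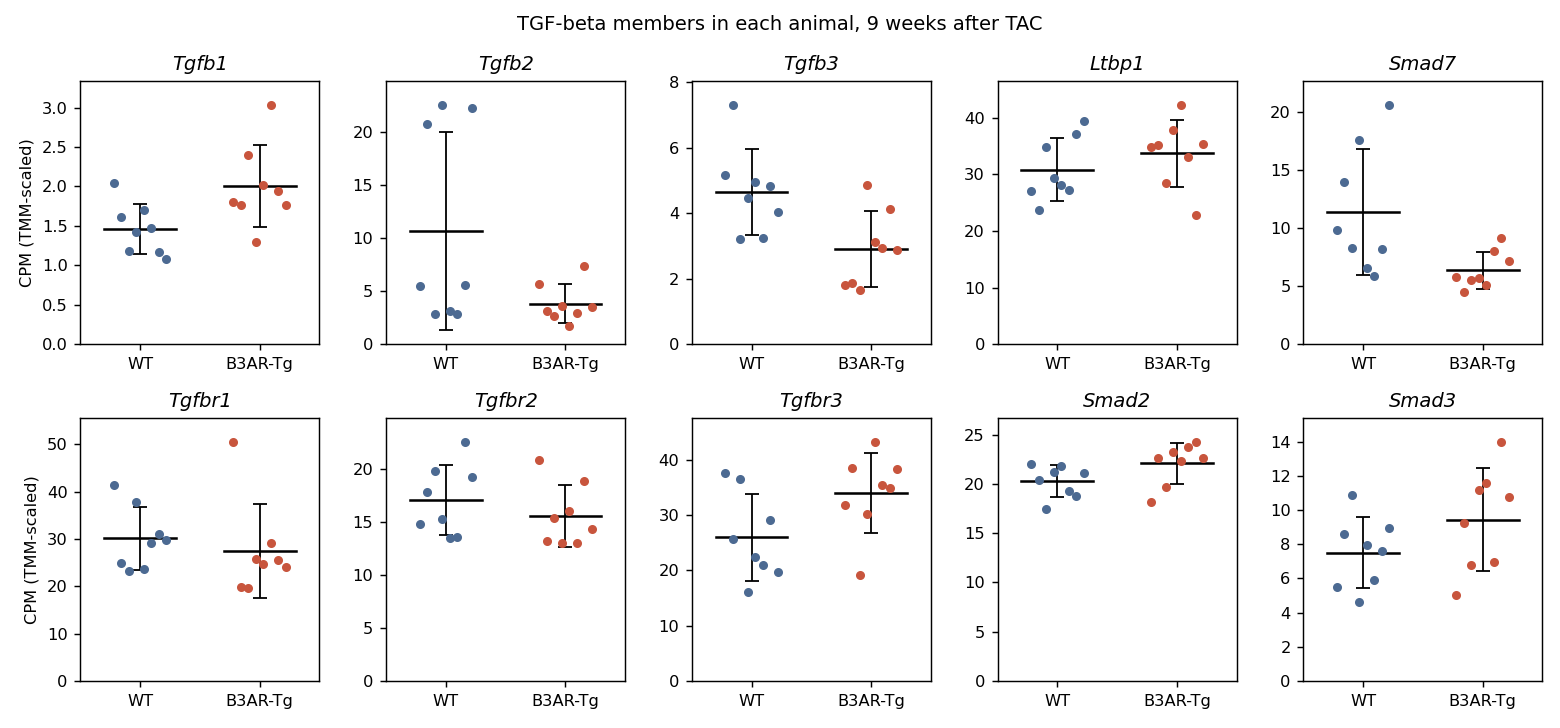
Each point is 1 animal's level in CPM (linear axis from 0) in WT and B3AR-Tg, with the mean (line) and SD (bar) of 8 animals, 1 panel a gene. Tgfb2 and Smad7 spread widely in WT, where replicates 2, 4 and 8 lie above the others, and Smad2 varies least.

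The ligands differed in level and in the sign of their fold change. Tgfb1 (ENSMUSG00000002603), the isoform best known from fibrosis, was the least counted of the 10 genes, with 8 to 31 counts per library. Its level was 1.08 to 2.04 CPM (median 1.45) in WT and 1.30 to 3.03 CPM (median 1.88) in B3AR-Tg, and 7 of 8 B3AR-Tg animals lay above the WT median. The log2 fold change, 0.46 ± 0.21 (SE), did not pass (edgeR adjusted p = 0.243). The counts behind Tgfb1 limit the precision of each animal's value.

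Tgfb2 (ENSMUSG00000039239), an isoform that needs the co-receptor Tgfbr3 for strong binding, was the most variable of the 10. In WT replicates 2, 4 and 8 it was at 20.7, 22.5 and 22.2 CPM. The other 5 WT animals lay between 2.79 and 5.56 CPM, and B3AR-Tg between 1.74 and 7.40 CPM (median 3.31). The 3 high WT animals were thus above all others of either genotype, and the remaining WT animals overlapped with B3AR-Tg. Mean levels were 10.7 ± 9.31 and 3.82 ± 1.83 CPM in WT and B3AR-Tg (SD, n = 8 each). The log2 fold change of −1.49 ± 0.45 (SE) did not pass (edgeR adjusted p = 0.0585). It did pass without WT replicate 3, 5 or 6 or without B3AR-Tg replicate 7, with adjusted p between 0.0295 and 0.0381, and also in the fit with no low-count filter (adjusted p = 0.0482). It was −0.98 with limma voom (adjusted p = 0.210) and −0.84 with the fibroblast marker score as a covariate (0.584). All 7 tested markers of that score had negative log2 fold changes themselves, 1 of them past the threshold. With that covariate calls over all tested genes went from 537 to 14.

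Tgfb3 (ENSMUSG00000021253), the third ligand isoform, was at 3.20 to 7.31 CPM (median 4.65) in WT and 1.67 to 4.87 CPM (median 2.91) in B3AR-Tg. The groups overlapped, and 7 of 8 B3AR-Tg animals lay below the WT median. The log2 fold change, −0.71 ± 0.23 (SE), did not pass (edgeR adjusted p = 0.0821), except without B3AR-Tg replicate 4 (adjusted p = 0.0400) or with limma voom (0.0399). With the fibroblast marker score as a covariate it was −0.24, and with the endothelial marker score −0.30. Ltbp1 (ENSMUSG00000001870), which anchors latent ligand in the matrix, was at 23.6 to 39.4 CPM (median 28.7) in WT and 22.7 to 42.2 CPM (median 34.99) in B3AR-Tg, with a log2 fold change of 0.13 ± 0.12 (SE, edgeR adjusted p = 0.600).

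None of the 3 receptors passed. The type I receptor Tgfbr1 (ENSMUSG00000007613) was at 23.3 to 41.5 CPM (median 29.4) in WT and 19.6 to 50.5 CPM (median 25.2) in B3AR-Tg, where replicate 1 lay above every other animal and the remaining 7 between 19.6 and 29.1 CPM. Its log2 fold change was −0.13 ± 0.17 (SE, edgeR adjusted p = 0.725). The type II receptor Tgfbr2 (ENSMUSG00000032440), which binds ligand first, was at 13.5 to 22.5 CPM (median 16.6) in WT and 12.99 to 20.8 CPM (median 14.8) in B3AR-Tg, with a log2 fold change of −0.13 ± 0.13 (SE, edgeR adjusted p = 0.630). Both signs turned with the fibroblast marker score as a covariate (0.02 each), so the data give no direction for Tgfbr1 and Tgfbr2. The co-receptor Tgfbr3 (ENSMUSG00000029287) was at 16.1 to 37.6 CPM (median 24.1) in WT and 19.2 to 43.3 CPM (median 35.2) in B3AR-Tg. In Tgfbr3 7 of 8 B3AR-Tg animals lay above the WT median, replicate 3 being the exception, and the log2 fold change of 0.39 ± 0.17 (SE) did not pass (edgeR adjusted p = 0.207).

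The transducers Smad2 and Smad3 did not pass either. Smad2 (ENSMUSG00000024563) was the steadiest of the 10 genes, at 17.4 to 22.1 CPM (median 20.8) in WT and 18.2 to 24.3 CPM (median 22.6) in B3AR-Tg. Its coefficient of variation was 8.04% in WT and 9.40% in B3AR-Tg, against 87.3% and 48.0% for Tgfb2. The log2 fold change of Smad2 was 0.12 ± 0.08 (SE, edgeR adjusted p = 0.439). Smad3 (ENSMUSG00000032402), which binds DNA at the matrix genes the pathway raises, was at 4.64 to 10.9 CPM (median 7.79) in WT and 5.02 to 14.01 CPM (median 10.01) in B3AR-Tg, with a log2 fold change of 0.33 ± 0.20 (SE, edgeR adjusted p = 0.404).

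Smad7 (ENSMUSG00000025880), the inhibitor of the receptors, fell in B3AR-Tg. WT replicates 4 and 8 were at 17.6 and 20.6 CPM and WT replicate 2 at 14.02 CPM, while the other WT animals lay between 5.88 and 9.83 CPM. B3AR-Tg animals lay between 4.50 and 9.19 CPM (median 5.75), and 7 of 8 were below the WT median of 9.07 CPM. Mean levels were 11.4 ± 5.43 and 6.38 ± 1.59 CPM (SD, n = 8 each), a log2 fold change of −0.85 ± 0.24 (SE, edgeR adjusted p = 0.0420). The call was lost, at adjusted p between 0.0555 and 0.104, without any 1 of WT replicates 1, 2, 4 and 8 or B3AR-Tg replicates 1, 2, 3, 4, 5 and 8. It was also lost with limma voom (log2 fold change −0.62, adjusted p = 0.104), with libraries scaled by their totals only (−0.79, 0.0761), with the fibroblast marker score as a covariate (−0.51, 0.525) and with the endothelial score (−0.71, 0.258), and it was kept by DESeq2 (−0.84, 0.0156).

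**Figure D2:**
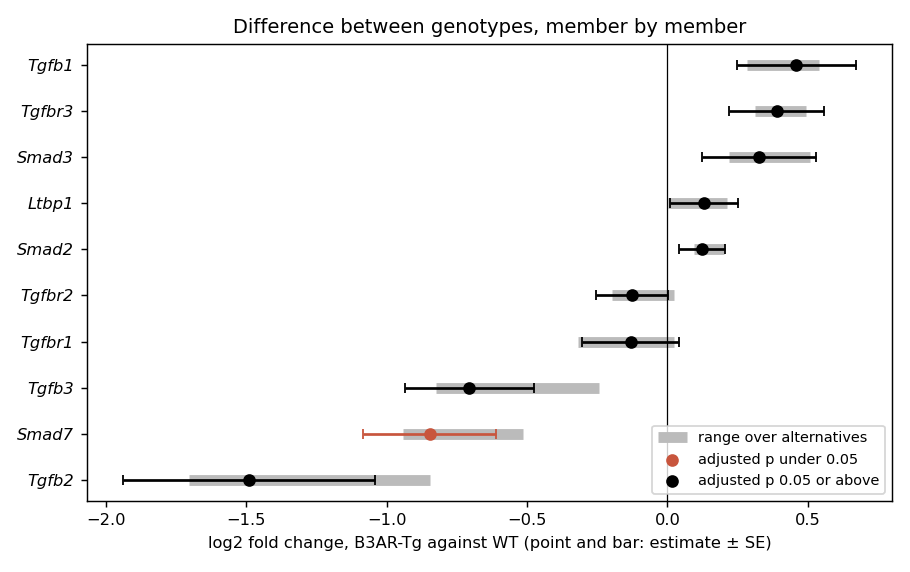
Points are log2 fold changes of B3AR-Tg against WT with their standard errors (bars) for the 10 genes, ordered by size, and grey bands span the values over the alternative settings. Smad7 (−0.85, coloured) is the gene past the threshold, and only the bands of Tgfbr1 and Tgfbr2 cross 0.

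The same 3 WT animals were highest in Tgfb2, in Smad7 and in Nppa, the atrial natriuretic peptide gene that rises in a loaded ventricle. Nppa was at 1076 to 1349 CPM in WT replicates 2, 4 and 8 and at 78.4 to 330.0 CPM in the other 5. The WT animals fell into clusters of 3 and 5 in Nppa, so no correlation was computed there. A relation within WT was not tested, and the B3AR-Tg relations below do not stand in for it. In B3AR-Tg, Nppa had a median of 23.2 CPM and its highest value, 120.3 CPM, in replicate 7, the animal that was also highest of its group in Tgfb2 (7.40 CPM) and in Smad7 (9.19 CPM). Over the 8 B3AR-Tg animals the relation with Nppa did not pass for either gene. For Tgfb2 r was 0.15 and rho 0.05 (exact permutation p = 0.730 and 0.935), and for Smad7 r was 0.38 and rho −0.05 (exact permutation p = 0.356 and 0.935), with r of −0.24 and −0.40 without the 2 animals farthest from the median of Nppa. Tgfb1 and Tgfb3 did not single out these WT animals, since the 3 highest WT animals in each were replicates 1, 2 and 5. Nppa itself was lower in B3AR-Tg by a log2 fold change of −3.99 ± 0.68 (SE, edgeR adjusted p = 0.00362).

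**Figure D3:**
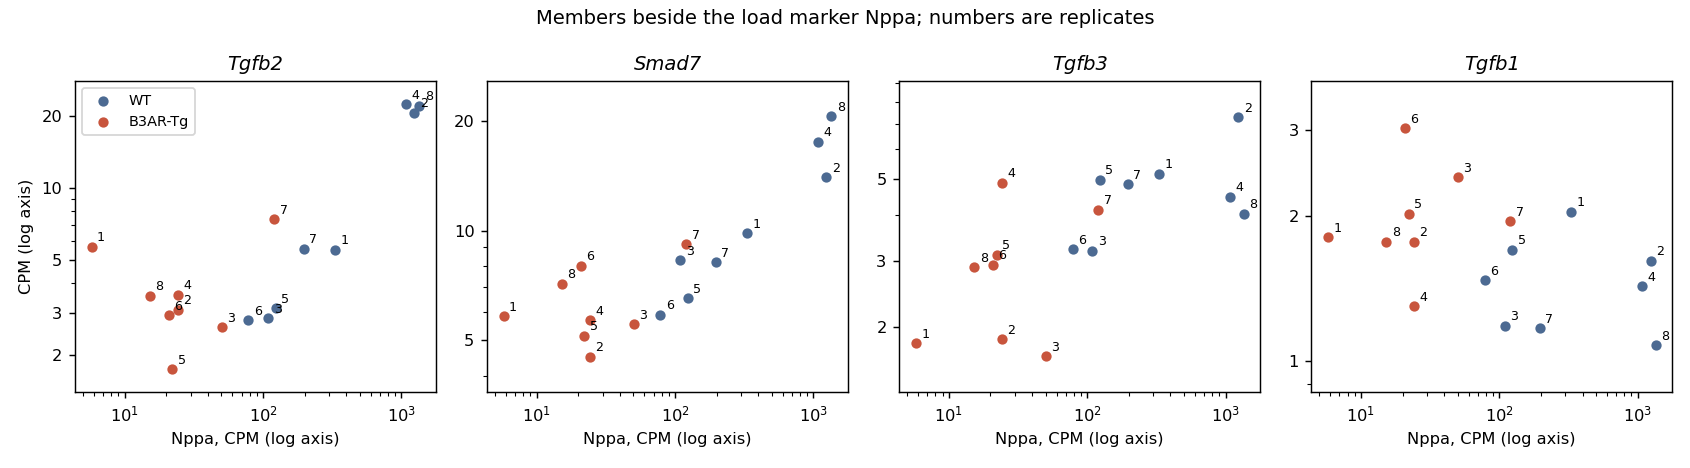
Levels of Tgfb2, Smad7, Tgfb3 and Tgfb1 (CPM, log axis) are plotted against Nppa (CPM, log axis), each point 1 animal with its replicate number. WT replicates 2, 4 and 8 sit at the upper right for Tgfb2 and Smad7 and not for Tgfb1.

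The genes whose pattern was most like that of Smad7, by Pearson r of log2 CPM over the 16 animals after each genotype's mean was taken off, were Ehd4 (r = 0.93), an endosomal transport protein, and Strn (r = 0.93), the scaffold protein striatin. Both were chosen for the highest r with Smad7, which was itself highest in the same 3 WT animals. The size of r, and high levels of Ehd4 and Strn in those animals, thus follow largely from the choice and are no separate observation. Ehd4 was at 462.9 to 672.1 CPM in those 3 animals and at 244.3 to 370.7 CPM in the remaining WT animals. Strn was at 54.7 to 69.2 CPM in those 3 animals and at 33.8 to 44.8 CPM in the remaining WT animals. Neither passed between genotypes (edgeR adjusted p = 0.196 for Ehd4 and 0.278 for Strn).

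Ratios between 2 members within a library do not depend on how libraries are scaled, and they test whether 2 members differ in their change. Of 9 ratios, 3 differed between genotypes in an exact permutation test over the 12870 splits of the animals (two-sided, adjusted over the 9). Smad7 fell against Smad2, from a median ratio of counts of 0.463 in WT to 0.300 in B3AR-Tg, a log2 difference of −0.86 (exact permutation adjusted p = 0.0133), with 8 of 8 B3AR-Tg animals below the WT median. It also fell against Smad3, from a median of 1.35 to 0.661 (difference −1.04, exact permutation adjusted p = 0.0242, 8 of 8 animals below). Tgfb3 fell against Tgfb1, from a median of 2.96 to 1.29 (difference −1.15, exact permutation adjusted p = 0.0133, 7 of 8 animals below). Each of these 3 passed without any 1 animal, with adjusted p of at most 0.0350 for Smad7 to Smad2 and for Tgfb3 to Tgfb1 and 0.0499 for Smad7 to Smad3. The 2 ratios of Smad7 share its counts, so they are not independent of each other or of its edgeR call. Smad7 to Smad2 ran from 0.301 to 0.977 in WT and from 0.201 to 0.379 in B3AR-Tg, so the groups overlapped. WT replicates 2, 4 and 8, the highest in Smad7, were left out only 1 at a time.

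The remaining 6 ratios did not pass. Tgfb2 to Tgfb1 had a median of 3.59 in WT and 1.85 in B3AR-Tg (log2 difference −1.48, exact permutation adjusted p = 0.0577), and the ratio reached 19.7 in 1 WT animal. Tgfbr3 to Tgfbr2 had medians of 1.49 and 2.50 (0.54, exact permutation adjusted p = 0.0587) and Tgfbr3 to Tgfbr1 medians of 0.923 and 1.29 (0.58, exact permutation adjusted p = 0.0732). All 3 passed without WT replicate 3 or without B3AR-Tg replicate 1, and 2 of them without WT replicate 1, which raised the count of ratios to 6, 6 and 5. Tgfb3 to Tgfb2, Tgfbr1 to Tgfbr2 and Smad2 to Smad3 had exact permutation adjusted p-values of 0.582, 0.842 and 0.525.

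**Figure D4:**
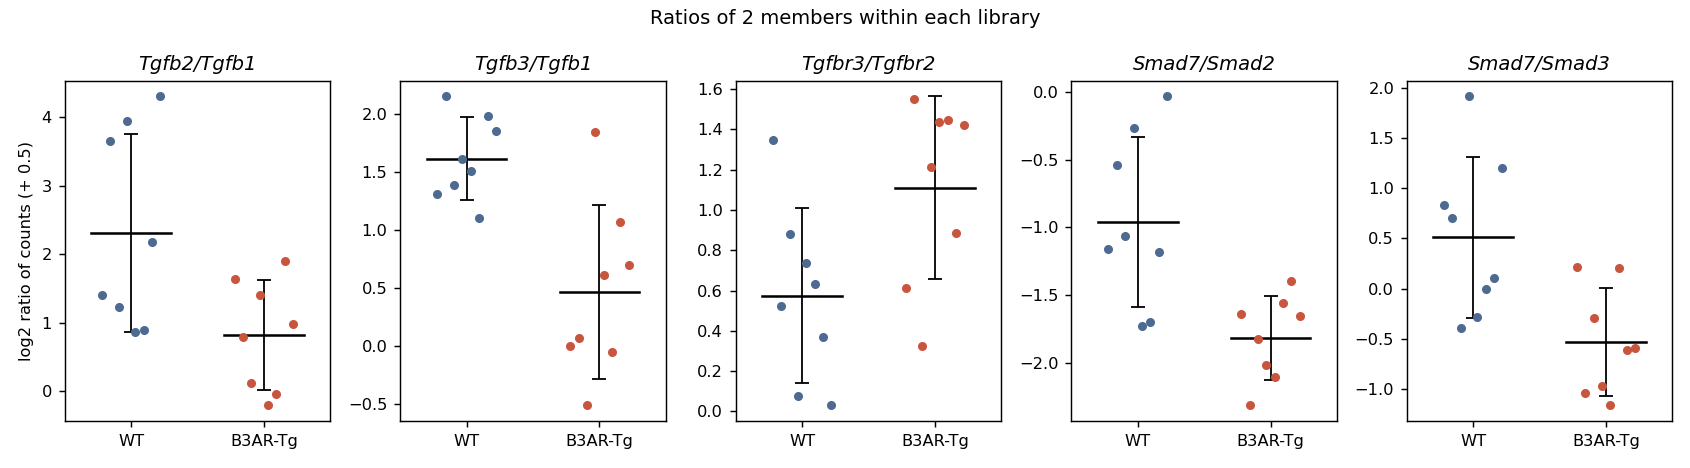
Log2 ratios of the counts (+ 0.5) of 2 members are shown for each animal in WT and B3AR-Tg, with mean (line) and SD (bar) of 8 animals. The ratios Tgfb3 to Tgfb1, Smad7 to Smad2 and Smad7 to Smad3 are lower in B3AR-Tg (adjusted p 0.0133, 0.0133 and 0.0242), and the other 2 shown did not pass.

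Within a genotype, the level of each member was set against the fibroblast marker score and the endothelial marker score in both groups and against Nppa in B3AR-Tg (50 relations over 8 animals each). After adjustment, 0 passed, by Pearson r or Spearman rho. An unadjusted exact permutation p under 0.05 was reached by 2 relations for r, both of Tgfb3, and by 2 others for rho. In WT it followed the fibroblast score with r = 0.77 (exact permutation p = 0.0263, adjusted 0.658) and rho = 0.67 (exact permutation p = 0.0831), and r was 0.23 without the 2 animals farthest from the median score, so that relation rested on those animals. In B3AR-Tg it followed the endothelial score with r = 0.75 (exact permutation p = 0.0141, adjusted 0.658) and rho = 0.64 (exact permutation p = 0.0962), and r was 0.58 without the 2 farthest animals. By rho they were Smad7 with the fibroblast score in B3AR-Tg (rho = 0.79, exact permutation p = 0.0279, adjusted 0.687, r = 0.66 with exact permutation p = 0.0796) and Tgfbr1 with the endothelial score in B3AR-Tg (rho = 0.76, exact permutation p = 0.0368, adjusted 0.687, r = 0.27 with exact permutation p = 0.377).

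In WT the order of mean CPM per kilobase was Tgfbr1 (4.61 ± 1.01), Tgfbr3 (3.98 ± 1.20), Ltbp1 (2.88 ± 0.521), Smad7 (2.52 ± 1.20), Smad2 (2.31 ± 0.186), Tgfbr2 (2.08 ± 0.405), Tgfb2 (1.84 ± 1.61), Tgfb3 (1.37 ± 0.386), Smad3 (1.36 ± 0.373) and Tgfb1 (0.290 ± 0.0636), each with its SD over 8 animals. The ranges of neighbours in this order overlapped, Tgfbr2 and Tgfb2 included, apart from Smad3 and Tgfb1. In B3AR-Tg the highest level per kilobase was that of Tgfbr3 (5.19 ± 1.11), Smad7 stood at place 7 (1.41 ± 0.352), Tgfb2 at 9 (0.660 ± 0.317) and Tgfb1 at 10 (0.398 ± 0.103). All neighbours overlapped there. With the longest transcript as the length, Tgfb1 in WT was at 0.568 and Ltbp1 at 4.62 CPM per kilobase, second after Tgfbr1, and in B3AR-Tg Tgfb1 (0.779) stood above Tgfb2 (0.747), so the place of the lowest ligand in B3AR-Tg depends on the length used.

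The other genes of the pathway were taken from 5 lists with 97 genes in the table, of which 63 were tested. Of these 63, 15 passed, and all 15 were lower in B3AR-Tg, where the background for lower genes was 2.88%. Their median log2 fold change was −0.24. The lists were chosen with earlier results of these data known, and matrix genes had already been seen to be lower, so the counts are a description. Some of the 15 had few counts in B3AR-Tg, such as Col1a1 (2 to 19), Gdf15 (2 to 24) and Ltbp2 (5 to 22). Such genes could pass the low-count filter mainly through WT, where they were higher, so the share that passed is no test of the lists. WT replicates 2, 4 and 8, the animals high in Tgfb2, were also the 3 highest WT animals in 7 of the 15 genes (Bgn, Fbn1, Fn1, Fstl1, Gdf15, Ltbp2 and Postn), a feature singled out after the values were seen. Postn, the matrix protein periostin, was at 63.4 to 70.5 CPM in these 3 and at 7.65 to 22.2 CPM in the other WT animals. Their part in the counts was not tested. All 7 tested fibroblast markers, all 8 endothelial and all 7 tested mural markers had negative log2 fold changes as well, with medians of −0.82, −0.50 and −0.58. Of these, 1 fibroblast, 3 endothelial and 0 mural markers passed the threshold. Over all tested genes, 5350 of 10945 had a negative log2 fold change.

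**Figure D5:**
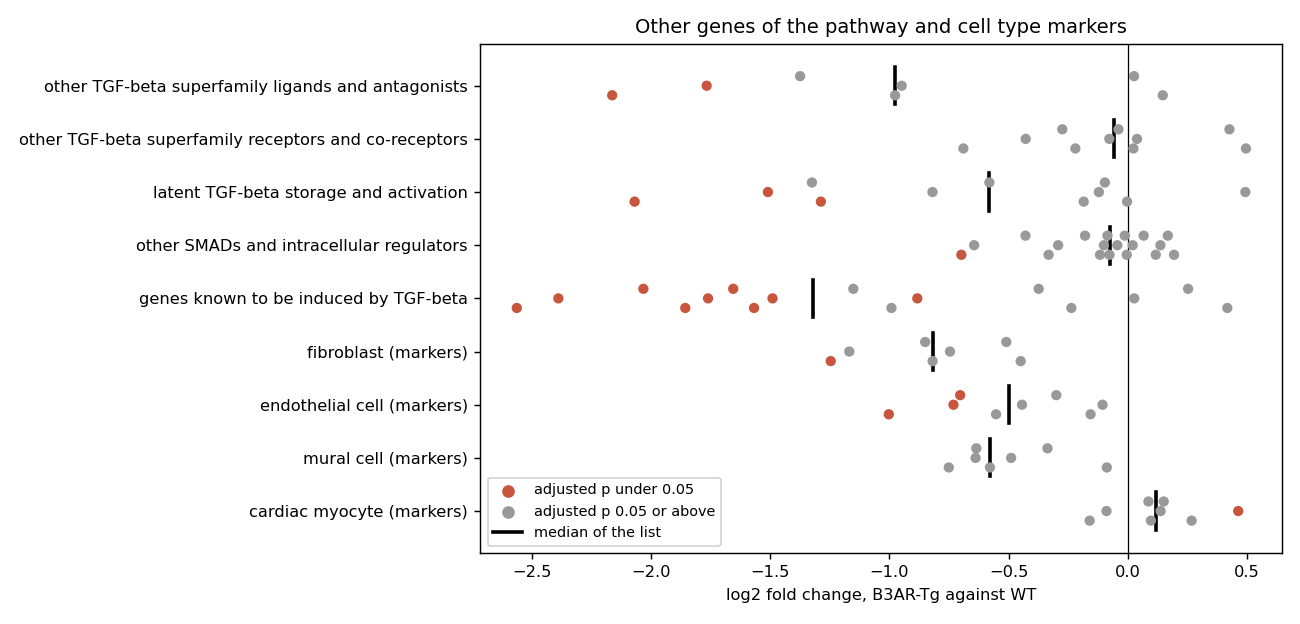
Each point is a tested gene's log2 fold change of B3AR-Tg against WT, grouped by list, with coloured points past the adjusted p threshold of 0.05 and a black bar at the list's median. The 15 coloured points of the 5 pathway lists all lie below 0, and the fibroblast, endothelial and mural markers also lie below 0.

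Among other ligands and antagonists of the superfamily, 2 of 7 tested genes passed (median −0.98). Gdf15, a stress-induced ligand, fell from 4.30 ± 2.73 to 0.963 ± 0.631 CPM (log2 fold change −2.16 ± 0.44 SE, edgeR adjusted p = 0.00911). Fstl1, a secreted follistatin-like protein, fell from 11.2 ± 5.64 to 3.33 ± 1.92 CPM (−1.77 ± 0.35 SE, edgeR adjusted p = 0.00771). The groups overlapped for both. With the fibroblast marker score as a covariate Fstl1 was at −1.08 (adjusted p = 0.287). Of 10 tested receptors and co-receptors of the superfamily, 0 passed (1 at an unadjusted p under 0.05), with a median of −0.06.

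In the list for storage and activation of latent ligand, 3 of 11 tested genes passed (median −0.58). These were Ltbp2 (log2 fold change −2.07, edgeR adjusted p = 0.0159), a relative of Ltbp1 that does not bind latent TGF-beta, Fbn1 (−1.29, 0.0170), the fibrillin to which latent complexes attach, and Mmp2 (−1.51, 0.0290), a matrix protease. Ltbp2 was at 0.441 to 8.06 CPM in WT and 0.335 to 1.71 CPM in B3AR-Tg, while Ltbp1 had a log2 fold change of 0.13. Mmp2 lost its call, at adjusted p between 0.0513 and 0.0658, without WT replicate 2, 4 or 8 or B3AR-Tg replicate 5 or 6, and Ltbp2 with limma voom (0.0603). With the fibroblast marker score as a covariate Mmp2 was at −0.79 (adjusted p = 0.499), Fbn1 at −0.65 (0.482) and Ltbp2 at −1.58 (0.327).

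Among other SMADs and intracellular regulators, 1 of 19 tested genes passed (median −0.08). Pmepa1, which like Smad7 is raised by TGF-beta and dampens it, fell from 8.39 ± 0.901 to 5.18 ± 1.31 CPM (log2 fold change −0.70 ± 0.15 SE, edgeR adjusted p = 0.0131). WT animals lay between 7.19 and 9.82 CPM and B3AR-Tg between 2.81 and 7.24 CPM, so that the groups met only at their edges. Pmepa1 passed without any 1 animal (adjusted p of at most 0.0285). Its fold change was −0.69 with the fibroblast marker score as a covariate (adjusted p = 0.182) and −0.59 with the endothelial score (0.128). Skil and Smad6, also feedback inhibitors and named here after their values were seen, had log2 fold changes of −0.29 and −0.64 and did not pass (edgeR adjusted p = 0.208 and 0.281). Other inhibitors in the lists were near 0, so the inhibitors did not fall as a set. Ski was at 0.07, Smurf1 at −0.08, Smurf2 at −0.04 and Bambi at −0.08 (edgeR adjusted p = 0.840, 0.778, 0.807 and 0.770). Without WT replicate 8 the value of Smad6 was −0.29.

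Of the 16 tested genes known to be induced by TGF-beta, 9 passed, all lower (median −1.32). The smallest p-values belonged to Vcan (log2 fold change −2.03, edgeR adjusted p = 0.00141), Col1a2 (−1.86, 0.00382), Col3a1 (−1.76, 0.00397) and Col1a1 (−2.39, 0.00507). These genes encode the proteoglycan versican and chains of collagens I and III made mainly by fibroblasts. Counts were low for Col1a1 (2 to 93 in WT, 2 to 19 in B3AR-Tg) and Vcan (18 to 112 and 8 to 35). With the fibroblast marker score as a covariate the 4 genes were at −1.38, −0.91, −1.04 and −1.28, and none passed (adjusted p between 0.151 and 0.306). The 7 tested fibroblast markers had negative log2 fold changes themselves, 1 of them past the threshold, and calls over all genes went from 537 to 14. A call lost in that fit is therefore not particular to these genes. Gdf15, in the same fit, was at −2.22 (adjusted p = 0.163). Acta2, smooth muscle actin, was named after its values were seen because it is induced by TGF-beta in many cell types. Its log2 fold change, 0.42, missed the threshold (edgeR adjusted p = 0.366).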

How the data were processed

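Per the labels' protocols, myocytes were isolated by Langendorff perfusion and plated for an hour, and stranded paired-end libraries were made after removal of ribosomal RNA. The authors deposited whole-number counts per gene with no normalization, and 0 columns lacked a sample. Per the submitters' processing notes, Salmon and GRCm39 were used. Its version, the annotation and the strand setting are not given in the sources used here, and whether reads of overlapping genes were separated was not tested. The labels name the samples as biological replicates and give no batch.

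Counts were fitted with edgeR 4.0.16 in R 4.3.3 (filterByExpr minimum count 10, minimum total 15, TMM scaling, genotype only), with an adjusted p threshold of 0.05 and two-sided tests. Standard errors are the absolute log2 fold change over the square root of F. CPM values use TMM factors. Ratios took counts + 0.5, and scores and correlations log2(CPM + 0.5), with scipy 1.17.1 and numpy 2.4.6 for exact tests, whose smallest p is 0.000155 for a split and 4.96e-05 for a correlation. A marker score is the mean of centred log2 CPM over a list's tested genes. Exon lengths came from GENCODE M21 on GRCm38, matched by gene ID, and promoters from RefSeq. Alternatives were other scalings and filters, DESeq2 1.42.0, limma 3.58.1 voom, marker covariates, a replicate block, thresholds and leaving out each animal. Tests were tested on simulated data.

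The text names all 10 members, up to 4 genes per list and direction with the smallest p among those past the threshold, the 2 genes most like each member past it, Adrb3 and Nppa. Skil, Smad6, Ski, Smurf1, Smurf2, Bambi, Acta2, Cd3e, Postn, Fn1 and Bgn fall outside this rule and were named after their values were seen. Correlations with Nppa in WT had been planned and were not computed because of the clusters. Members and lists were chosen with earlier results of these data known. One result for a gene of the lists is not reported here.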

Additional observations from a re-analysis of the deposited data

Results flagged for a closer look

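Among 38 groups of 8 animals (10 genes and 9 ratios in each genotype), 2 held an animal farther from the next one than Dixon's 95% critical value allows for 8 values, on the scale of log2(CPM + 0.5) for genes and log2 ratios, and chance flags about 1 in 20 groups, here 1.9. Tgfbr1 was highest in B3AR-Tg replicate 1, at 50.5 CPM against 29.1 CPM in the next animal, and its gap was 0.584 of the group's range on that log2 scale and 0.692 in CPM. Tgfbr3 was lowest in B3AR-Tg replicate 3, at 19.2 CPM against 30.2 CPM in the next, and its gap was 0.555 of the range on the log2 scale and 0.456 in CPM, where it would not have stood apart.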

How the results depend on the processing

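Over 26 alternative settings Smad7 stayed lower in all and passed in 11 (log2 fold change from −0.94 to −0.51, adjusted p from 0.0156 to 0.525), Tgfb2 passed in 5 (−1.70 to −0.84) and Tgfb3 in 2 (−0.82 to −0.24). The count of TGF-beta genes past the threshold, 1 in the main setting, was 0 with library totals only, the replicate block, either marker covariate or an adjusted p under 0.01, 2 with no low-count filter, and 3 at an adjusted p under 0.1. Leaving out 1 animal gave 0 to 2. The count of pathway list genes, 15 in the main setting, was 9 with a minimum count of 30. The rest of the 15 were not tested in that fit. The count was 23 with DESeq2, 0 with the fibroblast and 1 with the endothelial covariate. At an adjusted p under 0.01 it was 6, and without 1 animal 12 to 19. Over all genes the calls numbered 537, against 840 with DESeq2, 230 with the replicate block, 14 and 111 with the fibroblast and endothelial covariates, 908 and 109 at an adjusted p under 0.1 and 0.01, and 272 to 675 without 1 animal (272 without WT replicate 4, 277 and 345 without B3AR-Tg replicates 5 and 8). The cause was not tested. The count of ratios that differed, 3, was 3 to 6 without 1 animal, and 3 with either other pseudocount. Signs turned for Tgfbr1 and Tgfbr2 with the fibroblast covariate (0.022 each), and for the log2 difference in the ratio Tgfbr1 to Tgfbr2, −0.04, which ran from −0.122 to 0.0574 without 1 animal and was above 0 without WT replicate 1, 4 or 6 or B3AR-Tg replicate 3 or 7. Same-numbered animals did not deviate together (correlations from −0.251 to 0.0953 over the 8 numbers, 0 of which pairs reached 0.1), so these values show no pairing by number. A pairing need not show in such correlations, so it was not excluded. With the replicate block Smad7 was at −0.75 (adjusted p = 0.116), and 3 ratios passed in an exact sign-flip test, with Tgfb2 to Tgfb1 (adjusted p = 0.0469) in place of Smad7 to Smad3 (0.0703). Tgfb1, at 8 to 31 counts, is limited most by depth.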
